A study of Mus musculus with 26 samples.

Results

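The sirtuins are deacylases that consume NAD, and NAD in turn is made, cleared and phosphorylated by a small set of enzymes. The 10 genes described here are the 7 mouse sirtuins (Sirt1 to Sirt7) and 3 enzymes of NAD metabolism, Nampt, Nnmt and Nadk2. They were chosen by symbol from the 50686 genes in the deposited count table, and all 10 were among the 17286 genes that passed the filter on low counts. RNA-sequencing was carried out on brown adipose tissue (BAT, which the labels call supraclavicular) from 26 male C57BL/6J mice aged 12 to 16 weeks, all kept for 2 weeks at thermoneutrality (30 °C in the labels, 29 °C in the methods). The mice formed 4 groups: 7 control littermates (labelled WT) and 7 fat-specific Afadin knockout mice (labelled KO, named FAKO in the study) were sampled at thermoneutrality, and 5 control mice and 7 mice labelled FAKO were sampled after 6 h at 5 °C. FAKO mice carry the Adiponectin-Cre transgene, which acts in adipocytes, with Mllt4 flox/flox alleles of the Afadin gene, so the other cells of the tissue keep the gene. The alleles of the control littermates are not given in the sources used here.

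Total counts per mouse ranged from 12705969 to 25732258. Afdn, the gene that encodes Afadin, had 151 to 214 normalised CPM (counts scaled to a common library size with TMM factors) in control mice and 154 to 231 in mice labelled FAKO at thermoneutrality, so the ranges overlapped. After cold it had 67.9 to 79.2 CPM in control mice and 53.3 to 65.3 in mice labelled FAKO. Because Afdn did not differ at thermoneutrality (log2 fold change -0.01, adjusted p = 0.99 in the quasi-likelihood test of edgeR, adjusted by the method of Benjamini and Hochberg over all tested genes, as are all adjusted p-values here), the groups are called by their labels. The paper reports from immunoblots that the rise of Afadin protein in cold BAT was smaller in FAKO mice. It also shows immunoblots of Afadin at thermoneutrality and RT-qPCR of Mllt4 mRNA in both groups, whose values its text does not give. RNA counts over the whole gene and the whole tissue do not test the loss of the protein. The summed level of 12 brown adipocyte markers was between 7750 and 9680 CPM in the mice at thermoneutrality and between 28515 and 36439 CPM after cold. Of these 12 markers, 6 were higher and 3 lower after cold in control mice, and 7 higher and 4 lower in mice labelled FAKO. In control mice the mean of Ucp1 went from 985 to 16005 CPM and that of Lep from 254 to 5.25. The sum therefore does not measure the amount of brown adipocytes. The library of control mouse 7 at thermoneutrality stood apart. Mitochondrial genes took 14.3% of its counts against 33.9% to 40.5% in the other 6 control mice, and its 10 stromal and preadipocyte markers summed to 3740 CPM against 1452 to 2149. Values of the 10 genes that moved most when it was left out are given with and without it. In whole tissue, fewer cells of a type and less RNA per cell cannot be told apart.

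NAD is an electron carrier of fuel oxidation and also a substrate that is broken down by signalling enzymes. When a sirtuin removes an acyl group from a lysine it splits NAD and releases nicotinamide, which Nampt returns to the NAD pool and which Nnmt can instead methylate and so remove. Nadk2 phosphorylates NAD to NADP inside mitochondria. Sirt1, Sirt6 and Sirt7 are mainly nuclear, Sirt2 is mainly cytosolic, and Sirt3, Sirt4 and Sirt5 are mitochondrial. Brown fat oxidises fuel at high rates in the cold, and sirtuins and NAD have been studied there for their links to mitochondrial function.

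After 6 h at 5 °C, Nnmt rose about 13-fold in control mice and 15-fold in mice labelled FAKO, and Sirt5 and Nadk2 fell to near or below 0.5 of their level. Sirt3, Sirt4 and Sirt7 also fell and Sirt2 rose, by smaller amounts, though Sirt2 did not pass the test under either label when scaled by library size alone. Sirt1 and Sirt6 did not pass the test. Of the 10 genes, 7 passed it in control mice, 2 higher and 5 lower, where 65% of all tested genes passed, 31.6% higher and 33.4% lower. Under the FAKO label 8 of 10 passed, 3 higher and 5 lower, where 68.6% of all tested genes passed, 33.7% higher and 34.9% lower. These counts are therefore near the background of a response in which most genes changed, and what follows concerns the size and direction for each gene. The median log2 fold change of the 10 genes was -0.18 in control mice and -0.13 in mice labelled FAKO, against -0.01 and -0.03 over all tested genes. The groups did not overlap between temperatures for 4 of 10 genes in control mice and 5 of 10 in mice labelled FAKO, and for 46.4% and 40.4% of all tested genes. Without control mouse 7, the calls in control mice were again 7 of 10, 2 higher and 5 lower.

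**Figure D1:**
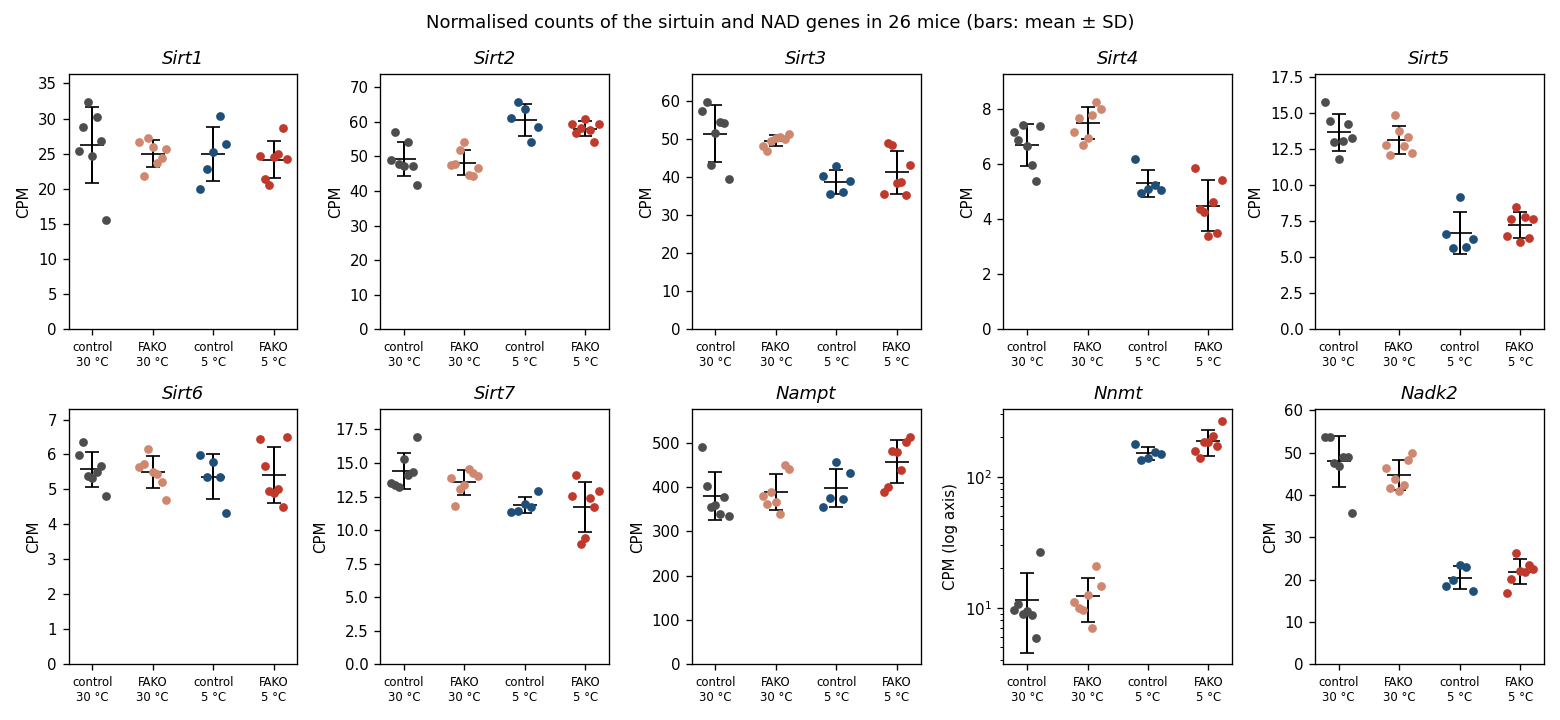
Normalised counts (CPM, linear axes from 0 except Nnmt, which has a log axis) of the 10 genes in each of the 26 mice, by label and temperature, with the mean ± SD of each group. The mice at 5 °C stand apart from those at 30 °C for Nnmt, Sirt5 and Nadk2 under both labels, while Sirt1 and Sirt6 overlap in all 4 groups.

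The levels of different genes can be set beside each other only per length, here as CPM per kilobase of exon. At thermoneutrality Nampt was far above the other 9 genes, at 75.1 ± 10.6 CPM per kb in control mice (SD, n = 7) and 76.9 ± 8.19 in mice labelled FAKO (SD, n = 7), and its range did not overlap that of the next gene. Sirt2 was the highest sirtuin at 9.76 ± 0.986 CPM per kb in control mice. Nadk2 (9.36), Sirt3 (8.61), Nnmt (7.26) and Sirt1 (4.93) followed, each with a range over mice that overlapped that of its neighbour in the order. Sirt7 (2.80), Sirt4 (2.79), Sirt5 (2.24) and Sirt6 (2.00) were the lowest, with overlapping ranges. After cold the order changed at both ends. Nnmt had the highest mean, at 96.1 ± 11.0 CPM per kb in control mice (SD, n = 5) and 118 ± 26.2 in mice labelled FAKO (SD, n = 7), but its range overlapped that of Nampt (78.8 ± 8.59 and 90.4 ± 9.70). Sirt5 had the lowest level, at 1.10 ± 0.238 and 1.18 ± 0.148 CPM per kb, with a range just below that of every other gene described here. Its highest control mouse had 1.507 against 1.551 for the lowest of Sirt6. In mice labelled FAKO it was 1.388 against 1.416 for the lowest of Sirt4. This order rests on the exon lengths used.

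The make-up of the sirtuin family shifted with temperature. The 7 sirtuins summed to 33.1 ± 2.73 CPM per kb in control mice at thermoneutrality (SD, n = 7) and 30.7 ± 1.08 after cold (SD, n = 5), with ranges of 28.1 to 36.8 and 29.8 to 32.6 that overlapped. Of this sum Sirt2 took 29.4% ± 1.00 at thermoneutrality and 39.1% ± 2.5 after cold in control mice. The FAKO group had shares of 29.4% ± 1.63 and 38.2% ± 1.70. The lowest share after cold, 35.9%, was above the highest at thermoneutrality, 31.8%. Sirt5 took 6.79% ± 0.673 of the sum in control mice at thermoneutrality and 3.56% ± 0.631 after cold, and 6.63% ± 0.337 and 3.91% ± 0.426 in mice labelled FAKO. The share of Sirt3 was 25.9% ± 2.21 and 21.1% ± 1.13 in control mice, where the highest mouse after cold (22.07%) was just below the lowest at thermoneutrality (22.19%). In mice labelled FAKO the share of Sirt3 overlapped between temperatures. A share within 1 mouse does not depend on how its library was scaled.

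**Figure D2:**
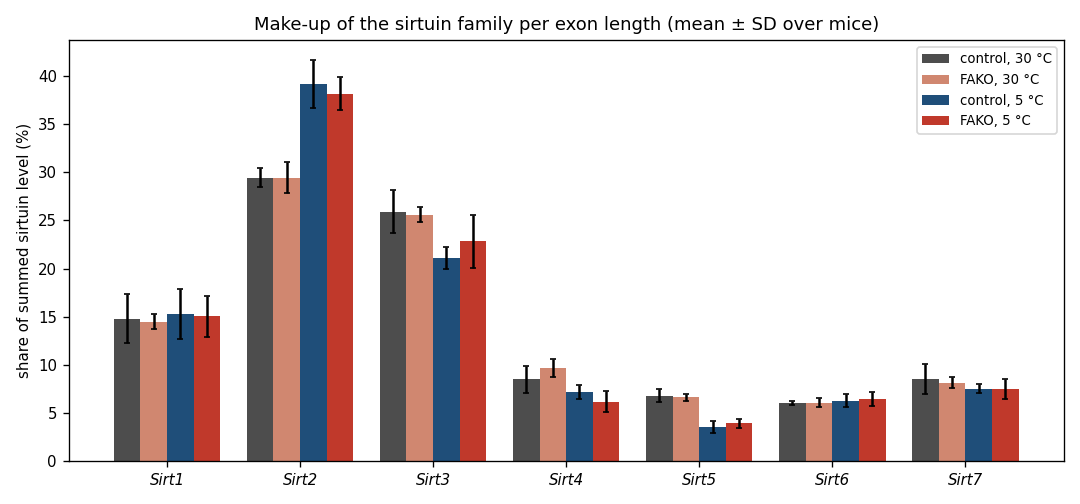
Share of each sirtuin in the summed level of the 7 sirtuins (percent, CPM per kb of exon), as the mean ± SD of the mice of each group. Sirt2 takes 29.4% at 30 °C and 38.2% to 39.1% at 5 °C, and Sirt5 takes 6.63% to 6.79% and then 3.56% to 3.91%.

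Promoter sequences are shown for 3 genes with unlike calls in the cold: Sirt5, which fell under both labels, Nampt, which passed the test in mice labelled FAKO but not in control mice, and Sirt1, which passed in neither. RefSeq (GRCm38.p6) start sites were matched for 8 of the 10 genes, all but Nnmt and Nadk2. The bases before the start are given 5′ to 3′ on the gene's strand, stopping before any annotated exon. Capitals mark letters searched for on both strands of the 250 bases before the start: the E-box CACGTG, the cAMP response element TGACGTCA and its half-site TGACG, the ERR element TCAAGGTCA and the CCAAT box.
Sirt5, chr13:43365285-43365495, plus strand: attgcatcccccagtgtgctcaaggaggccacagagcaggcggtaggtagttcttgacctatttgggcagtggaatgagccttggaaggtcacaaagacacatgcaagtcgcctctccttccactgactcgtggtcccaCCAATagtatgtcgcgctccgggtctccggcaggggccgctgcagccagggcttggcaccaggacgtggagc
Nampt, chr12:32820085-32820334, plus strand: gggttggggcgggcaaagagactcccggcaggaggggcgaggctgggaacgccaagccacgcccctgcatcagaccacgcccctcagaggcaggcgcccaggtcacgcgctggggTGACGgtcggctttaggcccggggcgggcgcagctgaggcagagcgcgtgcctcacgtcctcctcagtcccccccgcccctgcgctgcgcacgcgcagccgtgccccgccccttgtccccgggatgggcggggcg
Sirt1, chr10:63339051-63339285, minus strand: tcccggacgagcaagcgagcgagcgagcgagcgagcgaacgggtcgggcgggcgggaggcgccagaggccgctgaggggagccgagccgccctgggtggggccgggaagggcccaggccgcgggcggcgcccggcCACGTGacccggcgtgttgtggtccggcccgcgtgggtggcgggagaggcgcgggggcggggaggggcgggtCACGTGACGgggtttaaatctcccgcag
The E-box occurred 2 times in the Sirt1 window, and the match nearer the start overlaps the half-site. Of the 8 genes, 1 held the E-box, as did 6.02% of 32851 promoters of the same length. The half-site was in 4 of 8 (17.8% of promoters) and the CCAAT box in 3 of 8 (33.8%), while neither the full cAMP response element (1.55%) nor the ERR element (0.387%) was found in any of the 8. Sirt3 and Sirt6 had 2 start sites each, and a gene was counted if either held a match. Sirt3 held the half-site before 1 start and the CCAAT box before the other. The counts per gene and the percentages per promoter are therefore not quite alike. These matches describe letters and do not show binding.

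Nnmt, nicotinamide N-methyltransferase (ENSMUSG00000032271.13, chromosome 9 of mm10 from 48591877 to 48605153, minus strand), is the enzyme that methylates nicotinamide with S-adenosylmethionine. Control mice at thermoneutrality had 5.90 to 26.7 CPM (median 9.43). The 5 control mice after cold had 179, 135, 139, 155 and 149 CPM. Every mouse after cold was therefore at least 135 CPM and every control mouse at thermoneutrality at most 26.7. Mice labelled FAKO had 6.95 to 20.8 CPM (median 11.0) at thermoneutrality and 139 to 267 (median 183) after cold, again without overlap. Control mice had a log2 fold change with cold of 3.71 (SE 0.27, adjusted p = 4.4e-12, edgeR), and for mice labelled FAKO it was 3.93 (SE 0.26, adjusted p = 6.4e-13, edgeR). The highest value at thermoneutrality, 26.7 CPM, belonged to control mouse 7, the library that stood apart with high stromal markers, and without it the other 6 control mice had 5.90 to 10.7 CPM and the log2 fold change was 4.07 (SE 0.21). Over the groups, the stromal marker sum was 1452 to 3740 CPM in control mice at thermoneutrality and 1493 to 2085 after cold, which overlap.

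Nadk2, the mitochondrial NAD kinase (ENSMUSG00000022253.14, chromosome 15 from 9071260 to 9110891, plus strand), fell in the cold. Control mice had 35.7 to 53.8 CPM (median 48.9) at thermoneutrality and 18.5, 19.9, 23.3, 23.0 and 17.3 after cold. No cold mouse reached the lowest mouse at thermoneutrality. The log2 fold change was -1.23 (SE 0.10, adjusted p = 5.7e-11, edgeR), and -1.31 without control mouse 7, which had the lowest value at thermoneutrality. Mice labelled FAKO had 40.9 to 49.9 CPM (median 43.7) and then 16.8 to 26.3 (median 21.9), and their log2 fold change was -1.03 (SE 0.09, adjusted p = 1.4e-10, edgeR).

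Nampt, nicotinamide phosphoribosyltransferase (ENSMUSG00000020572.8, chromosome 12 from 32819545 to 32853349, plus strand), catalyses the rate-limiting step of NAD salvage from nicotinamide. Control mice had 335 to 489 CPM (median 359) at thermoneutrality and 354, 376, 456, 373 and 431 after cold. The ranges overlapped almost fully, and the log2 fold change of 0.07 (95% interval -0.13 to 0.27) did not pass the test (adjusted p = 0.54, edgeR). In mice labelled FAKO the values were 338 to 450 CPM (median 379) at thermoneutrality and 389 to 514 (median 479) after cold, and the log2 fold change of 0.23 (SE 0.09, adjusted p = 0.020, edgeR) passed with overlapping groups. That call was lost without mouse 9 (adjusted p = 0.062, edgeR) or mouse 12 (adjusted p = 0.074, edgeR) of the group at thermoneutrality, and the direction turned to -0.09 when scaled by library size alone. The difference between the cold responses of the labels, 0.16, did not pass the test (95% interval -0.10 to 0.43, adjusted p = 0.57, edgeR), so the rise in mice labelled FAKO was not shown to differ from that in control mice.

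Sirt5 (ENSMUSG00000054021.5, chromosome 13 from 43365496 to 43395203, plus strand), which removes succinyl, malonyl and glutaryl groups from mitochondrial proteins, had the largest fall of the sirtuins in both comparisons with temperature. Control mice had 11.8 to 15.8 CPM (median 13.3) at thermoneutrality and 6.64, 5.64, 9.18, 5.72 and 6.28 after cold. All mice after cold were below all mice at thermoneutrality. The log2 fold change was -1.02 (SE 0.11, adjusted p = 5.4e-09, edgeR). The FAKO group went from 12.1 to 14.8 CPM (median 12.8) to 6.08 to 8.46 (median 7.65). Their log2 fold change was -0.86 (SE 0.10, adjusted p = 1.4e-08, edgeR).

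Sirt4 (ENSMUSG00000029524.16, chromosome 5 from 115478010 to 115484725, minus strand) is a mitochondrial sirtuin known for its link to glutamate dehydrogenase and malonyl-CoA decarboxylase. Control mice had 5.39 to 7.42 CPM (median 6.87) at thermoneutrality and 6.17, 4.95, 5.11, 5.25 and 5.07 after cold, with 1 mouse after cold (number 16) inside the range at thermoneutrality. Mice labelled FAKO had 6.69 to 8.26 CPM (median 7.66) and then 3.40 to 5.87 (median 4.35), without overlap. The fall was 0.33 on the log2 scale in control mice (log2 fold change -0.33, SE 0.12, adjusted p = 0.015, edgeR). Under the FAKO label the log2 fold change was -0.74 (SE 0.11, adjusted p = 1.0e-06, edgeR). The counts behind Sirt4 were low, between 57 and 166 per mouse.

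Sirt3 (ENSMUSG00000025486.17, chromosome 7 from 140863666 to 140882309, minus strand), the main deacetylase of mitochondria, went from 39.5 to 59.9 CPM (median 54.3) to 40.2, 35.5, 43.0, 36.0 and 38.9 in control mice. The lowest mouse at thermoneutrality was number 7, at 39.5 CPM. The log2 fold change was -0.41 (SE 0.09, adjusted p = 0.00043, edgeR) and -0.49 without that mouse. The FAKO group went from 47.0 to 51.3 CPM (median 50.1) to 35.3 to 49.0 (median 38.7), and the log2 fold change was -0.27 (SE 0.09, adjusted p = 0.0074, edgeR). The cold mice labelled FAKO at 48.4 and 49.0 CPM lay inside the range at thermoneutrality. Exons of Sirt3 overlap those of Ric8a (418 bases, 7% of its exon length) and Psmd13 (342 bases, 5.73%) on the opposite strand. The library kit keeps strand, but whether counting used it is not given in the sources used here. Smaller overlaps were those of Sirt7 with Mafg on the same strand (124 bases, 2.41%), Sirt1 with the antisense gene Gm16145 (65 bases, 1.22%) and Sirt2 with Nfkbib on the opposite strand (42 bases, 0.834%).

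Sirt2 (ENSMUSG00000015149.14, chromosome 7 from 28766735 to 28788661, plus strand), a cytosolic tubulin deacetylase, was the 1 sirtuin that rose in the cold. When scaled by library size alone, neither call held: the log2 fold change was then 0.18 in control mice (adjusted p = 0.051, edgeR) and -0.04 under the FAKO label (adjusted p = 0.62, edgeR). Control mice had 41.8 to 57.0 CPM (median 47.8) and then 61.0, 65.8, 63.6, 54.0 and 58.4. The groups met at one end, where the lowest cold mouse (54.05 CPM) lay below the highest mouse at thermoneutrality (57.0) and just above the next (54.01). The log2 fold change was 0.30 (SE 0.07, adjusted p = 0.00026, edgeR). Mice labelled FAKO had 44.2 to 54.08 CPM (median 47.5) and then 54.27 to 60.7 (median 58.2), just without overlap, and the log2 fold change was 0.27 (SE 0.06, adjusted p = 0.00030, edgeR). Scaling by library size also shifted the median of all genes, by -0.32 on the log2 scale under the FAKO label. With upper-quartile factors Sirt2 had 0.11 there (adjusted p = 0.082, edgeR).

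The nuclear sirtuins moved little. Sirt7 (ENSMUSG00000025138.14, chromosome 11 from 120618372 to 120625240, minus strand), which is enriched in the nucleolus, went from 13.2 to 17.0 CPM (median 14.1) to 11.3, 11.4, 11.9, 11.7 and 12.9 in control mice, where the groups stood just apart (log2 fold change -0.28, SE 0.09, adjusted p = 0.010, edgeR). In mice labelled FAKO it went from 11.8 to 14.6 CPM (median 13.9) to 8.98 to 14.1 (median 12.4), and the log2 fold change of -0.21 (SE 0.08, adjusted p = 0.029, edgeR) did not pass without cold mouse 24 (-0.16, adjusted p = 0.070, edgeR) or 25 (-0.17, adjusted p = 0.073, edgeR). Sirt1 (ENSMUSG00000020063.16, chromosome 10 from 63319005 to 63381704, minus strand), the best known deacetylase of transcriptional regulators such as PGC-1α and FoxO1, had 15.6 to 32.4 CPM (median 26.8) in control mice at thermoneutrality and 19.99, 22.9, 25.2, 30.3 and 26.4 after cold. The ranges overlapped, and the log2 fold change of -0.07 had a 95% interval of -0.33 to 0.18. Without control mouse 7, the lowest at 15.6 CPM, it was -0.19 (adjusted p = 0.083, edgeR). Under the FAKO label it was -0.05 (95% interval -0.28 to 0.18). Sirt6 (ENSMUSG00000034748.16, chromosome 10 from 81621785 to 81627797, minus strand), a deacetylase of chromatin, had group means of 5.36 to 5.57 CPM and values of 4.32 to 6.51 over all mice, and its log2 fold changes were -0.05 (95% interval -0.27 to 0.16) and -0.02 (-0.21 to 0.18). With library size alone, Sirt1 (-0.36) and Sirt6 (-0.32) passed the test as lower in mice labelled FAKO, close to the shift of -0.32 in the median of all genes.

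**Figure D3:**
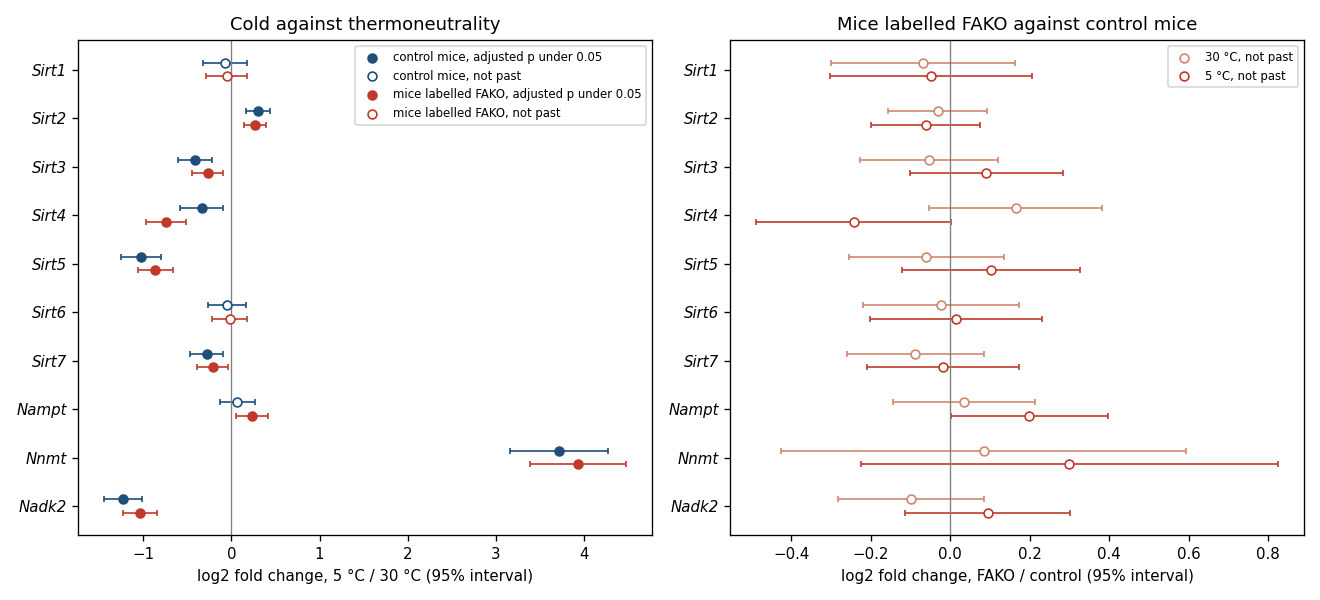
Log2 fold changes of the 10 genes with 95% intervals from edgeR, for cold against thermoneutrality (left) and for mice labelled FAKO against control mice (right, a narrower scale), with filled points for adjusted p under 0.05. Nnmt lies at 3.71 and 3.93 on the left, the other genes between -1.23 and 0.30, and no point is filled on the right. The rises of Sirt2 and Nampt in mice labelled FAKO turned to -0.04 and -0.09 when scaled by library size alone.

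Between the labels, 0 of the 10 genes passed the test at thermoneutrality in edgeR, where 0.081% of all tested genes did, and 0 of 10 had an unadjusted p under 0.05 (7.65% of all tested genes). Sirt4 had an unadjusted p of 0.13 in edgeR there, while an exact two-sided permutation test of Sirt4 alone gave p = 0.0443. After cold 0 of 10 passed (0.139% of all tested genes) and 1 had an unadjusted p under 0.05 (13.4%). With DESeq2 the counts were also 0 in both. In the reported fit at thermoneutrality, the 95% intervals of the 7 sirtuins lay within -0.30 and 0.38 on the log2 scale. Each interval is for 1 gene, and the estimates moved with the mice used. Without control mouse 7, Sirt4 had 0.21 (SE 0.11) and Sirt1 -0.15 (SE 0.09), against 0.165 and -0.07 with it. The interval of Nnmt reached from -0.42 to 0.59 around 0.08. Nnmt rested on control mouse 7, and without it the log2 fold change was 0.47 (SE 0.19, adjusted p = 0.35, edgeR), which did not pass either. After cold, the gene with an unadjusted p under 0.05 was Nampt. Its values were 354 to 456 CPM in control mice and 389 to 514 in mice labelled FAKO, with a log2 fold change of 0.20 (95% interval 0.00 to 0.40, adjusted p = 0.36, edgeR). An exact two-sided permutation test of Nampt alone gave p = 0.0593. Nnmt after cold was 0.30 higher on the log2 scale in mice labelled FAKO (95% interval -0.22 to 0.82, adjusted p = 0.65, edgeR, exact permutation p = 0.0783). Beside the comparison after cold, 5 nuclear-retained RNAs summed to 14845 to 16276 CPM in control mice and 10345 to 13583 in mice labelled FAKO. Malat1, Neat1, Meg3 and Kcnq1ot1 were lower under the FAKO label and Snhg11 was higher (log2 fold change 0.43). Of these, Neat1 passed the test (-0.99, adjusted p = 0.021, edgeR). All 5 red blood cell markers had an unadjusted p under 0.05 there, with sums of 417 to 684 and 517 to 1497 CPM. So did 3 of 6 neutrophil markers (sums of 6.91 to 14.0 and 6.21 to 66.4) and 3 of 10 macrophage markers (337 to 444 and 358 to 471). The same held for 3 of 9 tested lymphocyte markers (16.8 to 24.6 and 14.3 to 78.1) and 3 of 12 brown adipocyte markers. Of the other lists, 1 of 9 endothelial, 0 of 10 stromal and 0 of 10 skeletal muscle markers had one. The part of these cell types and RNAs in the values was not tested.

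The difference of the cold responses between the labels passed the test for 0 of the 10 genes in edgeR, against 1.16% of all tested genes, and 1 of 10 had an unadjusted p under 0.05 (16.2% of all tested genes). That gene was Sirt4, with a difference of -0.41 on the log2 scale (SE 0.16, 95% interval -0.74 to -0.08, adjusted p = 0.20, edgeR). Tested alone in log2 CPM, the difference was -0.42 (exact two-sided permutation test with labels permuted within each temperature, p = 0.0117, not adjusted over genes). Sirt4 had a mean of 7.50 ± 0.578 CPM in mice labelled FAKO and 6.69 ± 0.764 in control mice at thermoneutrality (SD, n = 7 each). After cold the order was the opposite, with 4.49 ± 0.922 (SD, n = 7) and 5.31 ± 0.49 (SD, n = 5). The ranges overlapped at both temperatures. Over all alternative settings and with each mouse left out, the difference stayed between -0.59 and -0.35 and its adjusted p between 0.093 and 0.39 (edgeR or DESeq2). Nnmt had a difference of 0.21 with control mouse 7 (adjusted p = 0.81, edgeR) and -0.16 without it (SE 0.26, adjusted p = 0.80, edgeR), so its sign rested on that mouse.

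The shares over all tested genes given above, 31.6% higher and 33.4% lower in control mice and 33.7% higher and 34.9% lower in mice labelled FAKO, are the background for each list that follows. Of the 8 tested genes of NAD salvage and the Preiss-Handler route, which starts from nicotinic acid, 1 rose and 5 fell in control mice, and 2 rose and 4 fell in mice labelled FAKO. The gene that rose in control mice was Nmrk2, and those in mice labelled FAKO were Nampt and Nmnat2, calls that other settings did not all keep. The list's median log2 fold change was -0.68 in control mice and -0.39 in mice labelled FAKO, against -0.01 and -0.03 over all tested genes. Naprt, the first enzyme of the Preiss-Handler route, had 27.9 ± 2.6 CPM in control mice at thermoneutrality (SD, n = 7) and 4.99 ± 0.98 after cold (SD, n = 5). Its log2 fold change was -2.48 in control mice (SE 0.15) and -2.03 in mice labelled FAKO (SE 0.13). Nadsyn1, the last enzyme of that route, changed by -0.97 and -0.77. Nmrk1, a nicotinamide riboside kinase, changed by -1.28 and -1.45. The enzymes that complete NAD from its mononucleotide differed among themselves: Nmnat3 had log2 fold changes of -1.53 and -0.98, nuclear Nmnat1 had -0.38 in control mice (adjusted p = 0.00097, edgeR) and -0.01 in mice labelled FAKO (adjusted p = 0.92, edgeR), and Nmnat2, with group means of 0.37 to 0.59 CPM, had 0.59 (adjusted p = 0.089, edgeR) and 0.64 (adjusted p = 0.045, edgeR). The Nmnat2 call under the FAKO label held in 4 of 14 fits with a mouse left out and 2 of 6 other settings, and with library size alone the value was 0.29 (adjusted p = 0.38, edgeR). Nmrk2, a kinase typical of muscle, had 0.415 ± 0.69 CPM at thermoneutrality and 2.81 ± 4.3 after cold in control mice (log2 fold change 2.57, SE 1.03, adjusted p = 0.030, edgeR), and a log2 fold change of 2.24 in mice labelled FAKO (adjusted p = 0.070, edgeR). The call in control mice held in 7 of 12 fits with a mouse left out. It was lost without cold mouse 16 (0.90, adjusted p = 0.49, edgeR), without mouse 1, 2, 5 or 6 at thermoneutrality (adjusted p = 0.052 to 0.054, edgeR) and with DESeq2 (adjusted p = 0.084). Beside it, the 10 skeletal muscle markers summed to 6.65 to 5329 CPM in the 7 control mice at thermoneutrality and 0.815 to 4784 in the 5 after cold. With cold, 0 of these 10 markers passed the test in control mice. Their part in the Nmrk2 value was not tested. In the kynurenine route, which makes NAD from tryptophan, 4 of 9 genes passed the filter on low counts, with 1 higher and 3 lower in control mice and 1 higher and 2 lower in mice labelled FAKO. Kmo rose by 0.60 and 0.75 on the log2 scale, but with library size alone it had 0.46 (adjusted p = 0.080, edgeR) and 0.42 (adjusted p = 0.074, edgeR).

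Among 16 tested enzymes other than sirtuins that consume NAD, 4 rose and 9 fell in control mice, and 4 rose and 8 fell in mice labelled FAKO (median log2 fold changes -0.34 and -0.22). Parp1, the main poly-ADP-ribose polymerase of DNA damage, went from 93.2 ± 4.7 CPM to 40.0 ± 3.1 in control mice, with a change in log2 of -1.22 (SE 0.07) and of -1.17 in mice labelled FAKO (SE 0.06). Parp16 of the endoplasmic reticulum fell further, by 2.38 and 2.16 on the log2 scale. Tnks rose, by 0.39 in control mice (SE 0.06) and 0.16 in mice labelled FAKO (SE 0.06, adjusted p = 0.013, edgeR). With library size alone it was -0.17 in mice labelled FAKO. The ectoenzymes that cleave NAD outside the cell also rose. Cd38 rose by 0.58 (SE 0.11) under the control label and 0.47 (SE 0.10) under the FAKO label, and Bst1 by 1.48 and 1.81 on the log2 scale. With library size alone Cd38 had 0.14 under the FAKO label (adjusted p = 0.23, edgeR). Both are also made by immune cells. The 10 macrophage markers summed to 249 to 356 CPM in control mice at thermoneutrality and 337 to 444 after cold, and to 246 to 302 and 358 to 471 in mice labelled FAKO. The neutrophil markers, of which 4 of 6 tested were higher after cold in control mice and 5 of 6 in mice labelled FAKO, summed to 3.41 to 10.9 and 6.91 to 14.0 CPM in control mice and to 2.56 to 5.53 and 6.21 to 66.4 in mice labelled FAKO. The part of either in these values was not tested.

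Nnmt draws on the methyl cycle, of which 9 genes (Nnmt included) were tested. In control mice 4 rose and 5 fell, and in mice labelled FAKO 3 rose and 3 fell. Mat2a, which makes S-adenosylmethionine, rose from 171 ± 36 to 293 ± 23 CPM in control mice, with a change in log2 of 0.78 (SE 0.15) and of 0.89 in mice labelled FAKO (SE 0.14). Ahcy, which clears the S-adenosylhomocysteine left by methylation, rose by 0.47 and 0.61, and with library size alone had 0.27 in mice labelled FAKO (adjusted p = 0.071, edgeR). Aox1, an oxidase of methylated nicotinamide, fell by 1.08 and 0.93, and Mtr, methionine synthase, fell by 0.77 and 0.65 on the log2 scale.

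Of 18 tested NAD kinases and enzymes that make NADPH, Nadk2 among them, 3 rose and 10 fell in control mice and 5 rose and 4 fell in mice labelled FAKO. The medians were -0.30 and 0.04, and no gene of this list passed the test of the difference between the responses. The cytosolic kinase Nadk had a log2 fold change of 0.23 in control mice (SE 0.10, adjusted p = 0.044, edgeR) and 0.17 in mice labelled FAKO (adjusted p = 0.11, edgeR), where Nadk2 fell by more than 1 under both labels. The Nadk call held in 2 of 12 fits with a mouse left out and 4 of 8 other settings. With library size alone Nadk had 0.10 in control mice (adjusted p = 0.60, edgeR) and -0.13 in mice labelled FAKO (adjusted p = 0.43, edgeR). Mthfd2, a folate enzyme of mitochondria, rose from 2.68 ± 0.82 to 41.4 ± 9.4 CPM in control mice, with a change in log2 of 3.95 (SE 0.27) and of 3.71 in mice labelled FAKO (SE 0.26). Idh1, the cytosolic NADP-dependent isocitrate dehydrogenase, fell by 1.22 and 0.85 on the log2 scale. Nnt, the transhydrogenase of the inner mitochondrial membrane, had log2 fold changes of -0.78 (adjusted p = 0.0032, edgeR) and -0.24 (adjusted p = 0.29, edgeR). Under the FAKO label it passed without cold mouse 25 (-0.51, adjusted p = 0.0050, edgeR) and with library size alone (-0.60, adjusted p = 0.0065, edgeR), and it was between -0.51 and -0.12 with each mouse left out. The C57BL/6J strain is known to carry a deletion in Nnt. Of 7 tested users of mitochondrial NADPH, 2 rose and 2 fell in control mice and 4 rose and 3 fell in mice labelled FAKO. Aldh18a1, the first enzyme of proline synthesis, rose by 1.69 and 1.67 on the log2 scale.

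Of 11 tested genes of the NADH shuttles and NAD carriers, 6 rose and 3 fell in control mice and 7 rose and 3 fell in mice labelled FAKO. Slc25a51, the carrier that brings NAD into mitochondria, rose from 309 ± 25 to 853 ± 82 CPM in control mice (log2 fold change 1.46, SE 0.09), and its log2 fold change was 1.68 (SE 0.08) under the FAKO label. Got1, the cytosolic aspartate aminotransferase of the malate-aspartate shuttle, rose from 13.9 ± 3.2 to 158 ± 20 CPM in control mice (log2 fold change 3.50, SE 0.13). Gpd1l fell by 2.44 and 2.04 on the log2 scale.

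The RNAs of proteins that sirtuins act on or are regulated by made up the last lists. Of 9 tested partners and regulators, 7 rose and 1 fell under either label. Ppargc1a, which encodes PGC-1α, rose from 33.2 ± 6.5 to 559 ± 150 CPM in control mice, with a change in log2 of 4.07 (SE 0.21) and of 3.95 in mice labelled FAKO (SE 0.20). Foxo1 rose by 1.79 and 1.67, and Elavl1, which encodes the RNA-binding protein HuR, by 1.57 and 1.504. Ccar2, an inhibitor of Sirt1, had 0.10 (adjusted p = 0.27, edgeR) and 0.03 (adjusted p = 0.69, edgeR), and -0.29 (adjusted p = 0.018, edgeR) in mice labelled FAKO with library size alone. Hic1, a repressor of Sirt1, fell by 0.60 and 0.83. Among 11 tested mitochondrial proteins known as sirtuin substrates, 4 rose and 2 fell in control mice and 5 rose and 1 fell in mice labelled FAKO, and 5 of 11 did not pass under either label. Sod2, a substrate of Sirt3, rose by 0.84 and 0.94, and Mlycd, the malonyl-CoA decarboxylase linked to Sirt4, by 1.19 and 1.58. Idh2, another substrate of Sirt3, fell by 0.53 and 0.42 on the log2 scale. In none of these 9 lists did a gene pass the test between the labels at either temperature or the test of the difference of the cold responses (edgeR). An unadjusted p under 0.05 between the labels after cold was found for 4 of 8 salvage genes and 4 of 18 genes of the NADPH list, where 13.4% of all tested genes had one. It was found for 2 of 11 shuttle genes, 2 of 11 sirtuin substrates, 1 of 16 other NAD-consuming enzymes and 1 of 7 users of mitochondrial NADPH. The kynurenine list (4 tested), the methyl cycle (9) and the partners (9) had 0. For the difference of responses an unadjusted p under 0.05 was found for 3 of 8 salvage, 4 of 18 NADPH and 3 of 11 shuttle genes, where 16.2% of all tested genes had one. It was also found for 2 of 7 users of mitochondrial NADPH, 2 of 11 substrates and 2 of 16 NAD-consuming enzymes. The kynurenine, methyl cycle and partner lists again had 0.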

How the data were processed

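RNA-seq libraries of BAT from 26 mice were grouped by their labels. The authors made the libraries with a stranded total RNA kit after rRNA depletion, aligned the reads to mm10 with STAR 2.5.2b, assigned them to GENCODE genes with featureCounts 1.5.2 and deposited whole-number counts per gene without normalization. Whether strand was used in counting is not given in the sources used here. Of 50686 genes, 17286 were kept with filterByExpr. The counts were scaled by TMM and fitted with 1 term for each of the 4 groups in edgeR 4.0.16 (legacy quasi-likelihood mode, R 4.3.3, limma 3.58.1), and p-values were adjusted by Benjamini-Hochberg over all tested genes with a threshold of 0.05. The SE of a log2 fold change is its size over the root of its F statistic. Log2 CPM had a prior count of 2. Exact two-sided permutation tests were run on single genes and not adjusted.

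The 10 genes and the lists around them were chosen with earlier results of these data known. All 10 are reported. From each list, the text names at most 3 rising and 3 falling genes, taken by size of change among called genes averaging 1 CPM or more, besides 15 fixed neighbours of the 10 genes. Exon lengths came from GENCODE M21. Mice of a group are separate animals, and all 73 pairs of libraries within a group differed by more than sampling noise (lowest chi-square per gene 4.92). The steps were tested on simulated data. Some items are not reported here. The alternatives were library size alone, upper-quartile factors, DESeq2 1.42.0, no filter, a minimum of 10 counts in each mouse, the revised quasi-likelihood method, robust empirical Bayes, only the groups compared, and leaving out each mouse. Total counts per mouse were 12705969 to 25732258.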

Additional observations from a re-analysis of the deposited data

Results flagged for a closer look

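Among the 40 combinations of gene and group, 4 held a mouse whose gap to the others exceeded Dixon's 95% limit, where chance gives about 5%. In the control mice at thermoneutrality 3 of these were the library of mouse 7, with the lowest Sirt1 (15.6 CPM, the next mouse at 24.7), the lowest Nadk2 (35.7 CPM, next 46.8) and the highest Nnmt (26.7 CPM, next 10.7). The same library had 14.3% mitochondrial counts, 5329 CPM of skeletal muscle markers (6.65 to 1503 in the other 6) and 1120 CPM of red blood cell markers (233 to 486 in the other 6). The part of these in the 3 values was not tested. The remaining mouse was number 16 of the control group after cold, with the highest Sirt4 (6.17 CPM, next 5.25).

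Sirt4 was flagged for its difference of -0.42 in log2 CPM between the cold responses of the labels (FAKO minus control). Tested alone, it had p = 0.0117 (exact two-sided permutation test, not adjusted over the 10 genes tested this way). That same p-value chose the gene, so it does not show that the responses differed. In edgeR 16.2% of all tested genes had an unadjusted p under 0.05 for this difference. Sirt4 did not pass the adjustment over all tested genes (adjusted p = 0.20, edgeR's quasi-likelihood test). Without mouse 16 the fitted difference was -0.35 (adjusted p = 0.31, edgeR), and without control mouse 7 it was -0.44 (adjusted p = 0.15, edgeR).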

How the results depend on the processing

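No paired analysis was possible because the groups share no replicate numbers. Between 6 and 7 of the 10 genes passed the test for cold in control mice over the other settings (7 in the reported fit) and between 6 and 8 in mice labelled FAKO (8). With each mouse left out it was 7 in control mice and 7 to 8 in mice labelled FAKO. The comparisons of the labels and of the responses gave 0 of 10 in each of these fits. The falls of Sirt3, Sirt4, Sirt5 and Nadk2 and the rise of Nnmt passed under both labels in all of them. Library size alone turned Sirt2 (-0.0426), Nampt (-0.0876), Tnks (-0.17, adjusted p = 0.080, edgeR), Nadk (-0.13), Pdha1 (-0.26) and Ccar2 (-0.29) negative for cold in mice labelled FAKO. It moved the median of all genes by -0.32 there and by -0.13 in control mice, upper-quartile factors moved it by -0.16 and -0.11, and the genes called higher in mice labelled FAKO went from 5825 of 11860 to 3223 of 11607 and 4694 of 12063. In control mice Sirt2 had 0.18 with library size alone (adjusted p = 0.051, edgeR), and with that scaling Kmo lost its calls under both labels, Nadk its call in control mice and Cd38, Ahcy and Nmnat2 theirs in mice labelled FAKO, while Nmnat1 and Nnt passed there. For cold in mice labelled FAKO, calls were also lost for Sirt2 (0.11) and Nampt (0.08) with upper-quartile factors, for Sirt7 with no filter (adjusted p = 0.065, edgeR) and for Nampt with a minimum of 10 counts in each mouse (adjusted p = 0.068, edgeR). Over all genes, calls between the labels at thermoneutrality were 14, and 34 with library size alone, 48 with DESeq2, 9 with no filter and 7 to 93 with a mouse left out (93 without control mouse 7). After cold they were 24, and 5, 197, 15 and 7 to 100, with 45 under a minimum of 10 counts in each mouse and 9 with only the groups compared. For the difference of responses they were 200, 488 with DESeq2, 27 with no filter and 49 to 371 with a mouse left out (371 without control mouse 7). The cause of these changes was not tested. Counts of 57 to 166 per mouse limit Sirt4 and of 66 to 135 limit Sirt6.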

Other observations

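For each of the 10 genes, the gene whose log2 CPM followed it most closely over the 26 mice was looked up among 14246 genes with a mean of at least 1 CPM. These are descriptions over mice of 4 groups that share the temperature contrast, and the second value, computed on values centred on the group means, leaves that contrast out. Nnmt was followed by Hacd2 (Pearson r 0.993, and 0.839 within groups) and Cnnm2 (0.990 and 0.809). Nadk2 was followed by Uevld (0.983 and 0.779). Sirt5 was followed by Ccs (0.974 and 0.743) and Abcb8 (0.971 and 0.733), and Sirt3 by Ptgr2 (0.932 and 0.850) and Etfrf1 (0.917 and 0.817). For Sirt2 the closest were Fabp3 (0.912 and 0.720) and Brd7 (0.906 and 0.745), and for Sirt4 Mrvi1 (0.903 and 0.655) and Rasgrp3 (0.900 and 0.630). Nampt was nearest to Pde1a (0.862 and 0.792), Sirt7 to Csk (0.864 and 0.747), Sirt1 to Avl9 (0.810 and 0.834) and Sirt6 to Tmem35a (0.666 and 0.667).

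Among the 10 genes themselves, Sirt5 and Nadk2 had an r of 0.938 over the 26 mice and Nnmt and Nadk2 of -0.943. Centred on the group means these were 0.328 and -0.161. The highest value within groups was that of Nampt and Nadk2, 0.633, whose r over all mice was -0.277, followed by Sirt3 and Sirt5 at 0.588.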
